A study of Homo sapiens with 12 samples.

Results

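The YAP branch of Hippo signalling was followed through 10 genes, YAP1, LATS2, AJUBA, AMOTL1, AMOTL2, CTGF, CYR61, ANKRD1, F3 and AXL, in HCT116 cells with and without a knockout of PPM1G. They were taken by symbol from the 56104 gene rows of both count tables, where each of the 10 has 1 row; CTGF and CYR61 are the tables' names for CCN2 and CCN1. HCT116 is a human colorectal carcinoma cell line, and PPM1G encodes a nuclear serine/threonine phosphatase. The study measured newly made RNA by 4sU-seq, which marks transcripts made during 10 min with the uridine analog 4sU and pulls them down, and steady-state RNA by RNA-seq. Each assay held 3 libraries of PPM1G knockout cells (KO) and 3 of control cells (Ctrl), 12 in all. Both genotypes were grown in the same medium, used at passages under 15, and given ERCC spike-in RNA in both assays. The sample titles call the controls Ctrl_KO while their genotype is labelled Ctrl; the labels say neither how the controls were made nor whether the knockout is 1 clone or which site was edited. The 4sU-seq protocol speaks of biological replicates, but nothing says whether the RNA-seq libraries came from separate cultures, so their p-values measure only the spread between these libraries, which may be technical.

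YAP1 is a transcriptional co-activator with no DNA-binding domain of its own, and it acts on genes mainly through the TEAD family of DNA-binding factors. When the Hippo pathway is active, the LATS kinases phosphorylate YAP1 and hold it in the cytoplasm, and angiomotin family proteins such as AMOTL1 and AMOTL2 bind it there, while AJUBA restrains the LATS kinases. CTGF, CYR61 and ANKRD1 are widely used readouts of YAP1 activity, and LATS2 and AMOTL2 are themselves targets, which makes them part of a negative feedback.

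TEAD factors bind the letters GGAATG, which read CATTCC on the opposite strand. AP-1 factors often bind beside them, and the letters TGANTCA, with any base at N, were searched as a loose pattern for their sites. RefSeq (GRCh38.p14) gave the 250 bases before the start for 9 of the 10 genes, in 12 windows because some genes have more than 1 start. Both strands were searched, no match of one motif overlapped a match of the other, and GGAATG was found in 6 windows of 6 genes. Across 35116 such windows of all genes, 11.9% held GGAATG and 6.57% held TGANTCA. The second start of AJUBA held the match closest to its start and is not shown. The 4 windows below are shown because CTGF held the most GGAATG matches, ANKRD1 held both motifs, AMOTL2 (its second start) held a match close to the start, and F3 held 2 TGANTCA matches and no GGAATG. They run 5′ to 3′ on the gene's strand, and capitals mark the matches to these motifs.
CTGF chr6:131951373-131951622 (minus strand): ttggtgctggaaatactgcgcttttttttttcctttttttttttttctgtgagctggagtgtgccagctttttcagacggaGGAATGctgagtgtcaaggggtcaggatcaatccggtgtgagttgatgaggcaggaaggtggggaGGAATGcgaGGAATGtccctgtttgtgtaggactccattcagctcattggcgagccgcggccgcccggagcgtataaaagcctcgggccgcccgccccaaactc
ANKRD1 chr10:90921088-90921337 (minus strand): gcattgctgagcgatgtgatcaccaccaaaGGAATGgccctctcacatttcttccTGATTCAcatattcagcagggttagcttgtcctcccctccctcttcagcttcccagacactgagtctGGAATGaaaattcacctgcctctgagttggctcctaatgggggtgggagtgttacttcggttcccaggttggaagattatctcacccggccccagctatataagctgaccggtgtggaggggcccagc
AMOTL2 chr3:134374448-134374697 (minus strand): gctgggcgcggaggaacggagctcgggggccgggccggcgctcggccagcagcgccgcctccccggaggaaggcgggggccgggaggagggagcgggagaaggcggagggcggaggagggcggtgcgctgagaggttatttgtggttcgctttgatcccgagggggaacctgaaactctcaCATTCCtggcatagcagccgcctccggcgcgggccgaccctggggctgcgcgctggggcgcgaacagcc
F3 chr1:94541760-94542009 (minus strand): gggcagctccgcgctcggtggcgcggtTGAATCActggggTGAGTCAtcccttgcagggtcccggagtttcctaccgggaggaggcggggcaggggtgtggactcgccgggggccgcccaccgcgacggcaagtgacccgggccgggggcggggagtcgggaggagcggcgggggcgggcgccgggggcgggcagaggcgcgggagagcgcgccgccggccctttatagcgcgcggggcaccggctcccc
Counting the last base before the start as position -1, the 3 matches of CTGF begin at -169, -104 and -95, and 0.0826% of all windows held 3 or more. ANKRD1 has GGAATG at -220 and -128, and AMOTL2 has CATTCC at -69. YAP1, the second start of AJUBA and the second start of AXL each held 1, at -162, -59 and -212. The windows of LATS2, AMOTL1 and F3 held neither GGAATG nor CATTCC, and nor did the first-start windows of AJUBA, AMOTL2 and AXL. A match describes these letters only, and binding was not measured.

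The 10 genes lie, on hg38 in GENCODE 29, at chr11:102110461-102233423 (YAP1, plus strand), chr13:20973032-21061547 (LATS2, minus), chr14:22971174-22982642 (AJUBA, minus), chr11:94706431-94876753 (AMOTL1, plus), chr3:134355874-134375479 (AMOTL2, minus), chr6:131948176-131951373 (CTGF, minus), chr1:85580761-85583962 (CYR61, plus), chr10:90912096-90921276 (ANKRD1, minus), chr1:94529225-94541800 (F3, minus) and chr19:41219203-41261766 (AXL, plus). CYR61, ANKRD1 and F3 share no base with another annotated gene. AJUBA shares 96.7% of its span with RP11-298I3.5 on the same strand, which held 1211 counts in KO and 1679 in Ctrl over the 4sU-seq libraries and 0 and 0 in RNA-seq. AMOTL1 shares 21.5% of its span with antisense genes, LATS2 14.8% with antisense and small RNA genes, and CTGF 13.4% with the antisense gene RP11-69I8.3. How overlapping genes were counted, and with which strand setting, is not given in the sources used here. It is therefore unknown which reads over the shared spans of AJUBA, AMOTL1, LATS2 and CTGF were counted for them. LATS2-AS1, inside LATS2, held 0 and 0 counts in 4sU-seq, and 36 in KO and 23 in Ctrl in RNA-seq. RP11-867G2.8, antisense to AMOTL1, held 4771 in KO and 3933 in Ctrl in 4sU-seq, and 0 and 0 in RNA-seq. Whether both assays were counted over the same parts of a gene is not given, so levels in 4sU-seq over RNA-seq may compare unlike parts.

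The RNA of the targeted gene was lower in every library labelled KO. PPM1G had 98.9, 144 and 104 CPM (counts per 1000000 gene counts, TMM-normalised) in the 4sU-seq KO libraries, against 242, 271 and 235 in Ctrl. In RNA-seq it had 97.8, 94.9 and 97.9 CPM in KO and 326, 293 and 331 in Ctrl. Its log2 change was -1.11 in 4sU-seq (SE 0.17, edgeR adjusted p = 0.00719) and -1.71 in RNA-seq (SE 0.06, 1.77e-10), and ERCC scaling alone ended the 4sU-seq call (0.19, with 7.87e-07 to 0.19 over the 15 alternatives). Library totals were 79403238 to 96766516 gene counts in KO and 83785534 to 101884166 in Ctrl for 4sU-seq, and 30962756 to 36178838 in KO and 34042299 to 42479828 in Ctrl for RNA-seq. In 4sU-seq, KO replicate 2 stood apart: it lay at 0.84 on a second component that held 33.2% of the variance, where the other libraries lay between -0.45 and 0.04. On the first component, with 63.05% of the variance, it lay at 0.0068. The other KO libraries lay there at 0.53 and 0.55, and Ctrl between -0.48 and -0.22. Counts of called genes that rest on 4sU-seq are therefore also given without KO replicate 2 for all genes, the 10 genes and the lists that include them. Marker calls, counts at an unadjusted p and list counts that leave out the 10 genes are given only with it. In RNA-seq, KO replicates 1 and 2 differed beyond sampling noise (chi-square per degree of freedom 1.71, against 10.5 to 19.0 for the other pairs) and were kept as separate libraries. The epithelial markers EPCAM, CDH1, KRT8, KRT18, KRT19 and CLDN4 together held 2688 to 2799 CPM in KO and 2852 to 3253 in Ctrl in RNA-seq, and 1278 to 2171 and 1392 to 1713 in 4sU-seq. Of these 6, CDH1 and CLDN4 were called higher and KRT18 and KRT19 lower in RNA-seq, and CDH1 was called higher in 4sU-seq (2.04-fold, edgeR adjusted p = 0.00261). The 4 leukocyte markers summed to at most 0.404 CPM in KO and 0.173 in Ctrl in RNA-seq, with CD3E at 0, and to 0.290 to 0.332 and 0.146 to 0.169 in 4sU-seq. The 4 endothelial markers summed to 0.539 to 0.709 CPM in KO and 0.194 to 0.448 in Ctrl in RNA-seq, and to 12.7 to 12.9 and 5.97 to 6.67 in 4sU-seq, where 3 of the 4 were called higher. The 6 fibroblast markers summed to 10.5 to 11.95 CPM in KO and 4.83 to 7.04 in Ctrl in RNA-seq, with COL1A2, DCN and LUM at 0 in every library and COL1A1 called higher (1.98-fold, edgeR adjusted p = 1.56e-05). In 4sU-seq they summed to 9.71 to 13.7 in KO and 4.995 to 5.94 in Ctrl, with 2 of the 6 at 0 and 2 called higher. The part of these markers in the results below was not tested.

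At steady state 8 of the 9 genes that could be tested fell in KO and none rose, and at an unadjusted p under 0.05 the counts were also 8 and 0. Of all 20415 genes tested, 11030 had an unadjusted p under 0.05 in either direction. The median log2 change of the 9 was -0.64, against 0.00 over all 20415 genes tested. The 10 genes were chosen with earlier results of these data known, so these counts are no independent test. Counts, with TMM-scaled library sizes, were compared by edgeR's quasi-likelihood test with Benjamini-Hochberg adjustment over all genes. A gene is taken as called at an adjusted p under 0.05. Across all genes 26.8% were called lower and 21.5% higher, 48.3% in all. The KO and Ctrl libraries did not overlap, with KO lower, in the same 8 genes, and in 29.9% of all genes tested (26.1% with KO higher, 56.1% in all). In newly made RNA 3 of the 10 were called lower (F3, CTGF and AXL) and none higher (6 and 0 at an unadjusted p under 0.05, and 5 and 0 by the DESeq2 Wald test). Of all genes there, 7194 had an unadjusted p under 0.05 in either direction, and the DESeq2 Wald test called 5518. The median log2 change of the 10 was -0.59, against 0.05 over all 21236 genes tested. Across all genes of 4sU-seq 6.97% were called lower and 12.6% higher, 19.6% in all. KO lay below Ctrl without overlap in 5 of the 10 (AMOTL2, CTGF, ANKRD1, F3 and AXL), and in 17.8% of all genes (20.6% with KO higher, 38.4% in all). Without KO replicate 2, AJUBA, AMOTL2, CTGF, F3 and AXL were called lower in 4sU-seq and YAP1 higher, while 11671 genes in all were called, against 4165 with it. In bulk RNA, fewer cells that make a transcript and less of it per cell cannot be told apart.

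**Figure D1:**
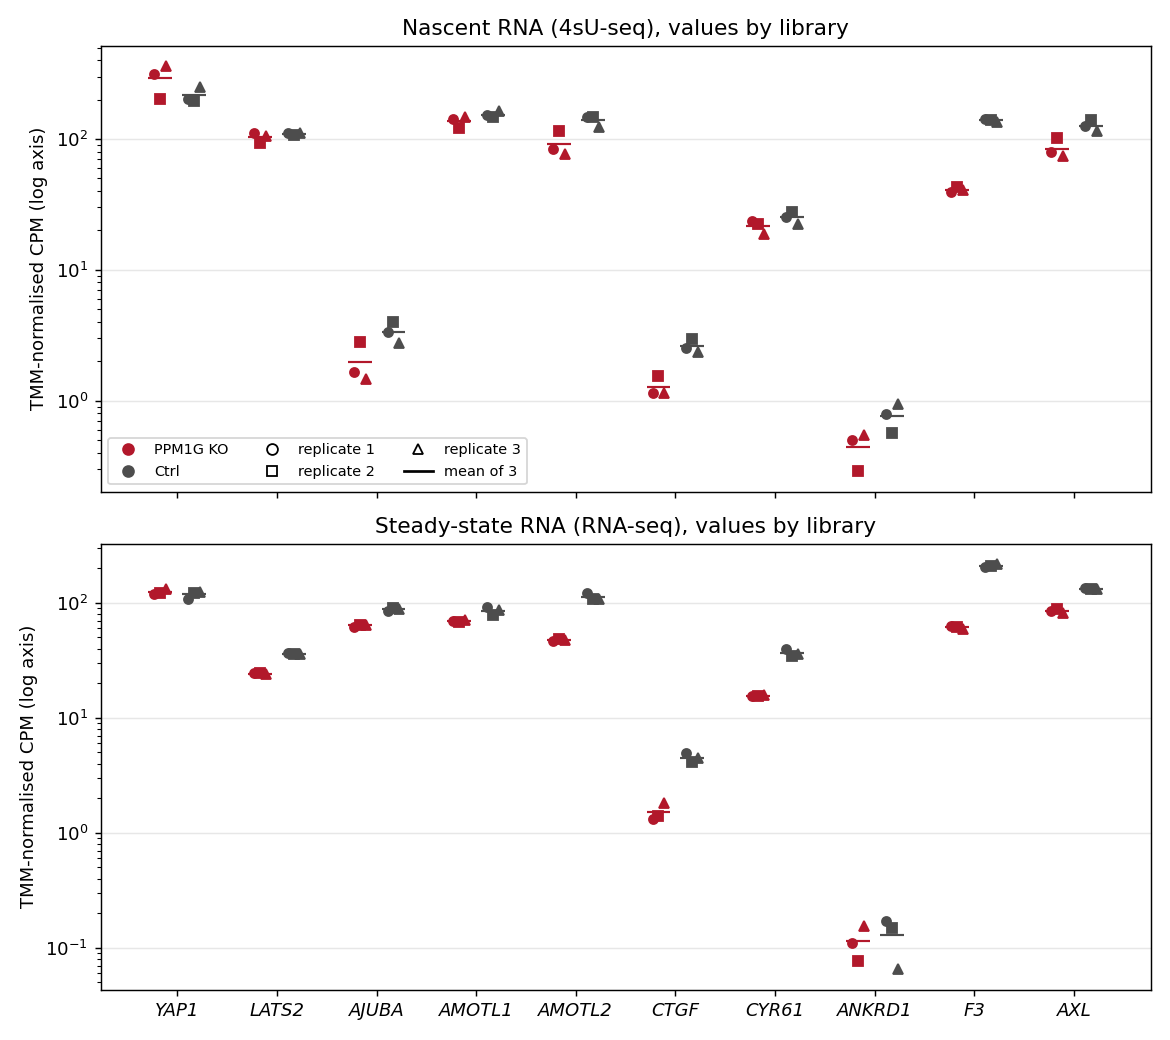
Each point is 1 library, with TMM-normalised CPM on a log axis for 4sU-seq (upper panel) and RNA-seq (lower panel), KO in red left of Ctrl in grey, marker shape for the replicate number and a line at the mean of 3. In RNA-seq every gene but YAP1 and ANKRD1 has its 3 KO points below its 3 Ctrl points, and in 4sU-seq KO replicate 2 of YAP1, AMOTL2 and AXL lies closer to Ctrl than the other KO libraries do.

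YAP1 itself was not called in either assay. Its newly made RNA stood at 316, 201 and 361 CPM in KO, against 203, 197 and 252 CPM in Ctrl. KO replicates 1 and 3 lay above all 3 Ctrl libraries and KO replicate 2 lay within the Ctrl range. The log2 change was 0.43 (SE 0.23, adjusted p = 0.241 by edgeR's quasi-likelihood test). Without KO replicate 2 it was 0.57 and YAP1 was called higher (adjusted p = 0.00923, with 0.00923 to 0.585 over the 15 alternatives). At steady state YAP1 stood at 119, 122 and 133 CPM in KO and 108, 121 and 126 CPM in Ctrl. The groups overlapped, and the log2 change was 0.07 (SE 0.07, edgeR adjusted p = 0.393). It was called higher with a filter at a mean of at least 50 counts, at 0.16 with the median of all genes at 0.014 (adjusted p = 0.0438), and under library size alone, at 0.26 with that median at 0.19 (0.00234). Over the 15 alternatives its adjusted p ran from 0.00234 to 0.859.

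Among the upstream regulators, LATS2, AJUBA, AMOTL1 and AMOTL2 all fell at steady state, and none was called in newly made RNA. LATS2, the kinase that phosphorylates YAP1, had 24.4, 24.4 and 23.9 CPM in RNA-seq KO libraries, against 36.3, 36.1 and 36.1 CPM in Ctrl. The libraries within each genotype lay within 1 CPM of each other and the genotypes did not overlap. LATS2 was 1.49-fold lower in KO (log2 -0.58, SE 0.05, edgeR adjusted p = 1.26e-06). In 4sU-seq it had 111, 93.5 and 105 CPM in KO and 110, 107 and 111 CPM in Ctrl. These ranges overlapped, with a log2 change of -0.08 (SE 0.11, edgeR adjusted p = 0.627) that was 0.17 under ERCC scaling.

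AMOTL2, an angiomotin-like scaffold that binds YAP1, showed the largest steady-state change of these 4 regulators. Its RNA-seq values were 46.2, 48.9 and 47.9 CPM in KO and 121, 108 and 109 CPM in Ctrl. It was 2.37-fold lower in KO with no overlap (log2 -1.24, SE 0.06, edgeR adjusted p = 4.80e-09). Its newly made RNA had 84.5, 115 and 77.4 CPM in KO, against 146, 148 and 123 CPM in Ctrl. All 3 KO libraries lay below Ctrl, KO replicate 2 nearest to it, and the log2 change of -0.59 (SE 0.18) was not called (edgeR adjusted p = 0.061). Without KO replicate 2 it was -0.85 and was called (adjusted p = 0.00101, with 0.00101 to 0.586 over the 15 alternatives). RPL39P5, a pseudogene on the same strand that overlaps the end of AMOTL2, held 883 counts in KO and 1367 in Ctrl in 4sU-seq.

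AMOTL1, its paralog, moved less. In RNA-seq it had 69.1, 68.4 and 70.6 CPM in KO and 91.6, 78.9 and 86.8 CPM in Ctrl. It was 1.24-fold lower in KO without overlap (log2 -0.31, SE 0.06, edgeR adjusted p = 0.0012), a call that was lost under ERCC scaling, under library size alone and with all 12 libraries in 1 fit (adjusted p from 0.000212 to 0.111 over the 15 alternatives). In 4sU-seq it had 142, 121 and 147 CPM in KO and 151, 146 and 164 CPM in Ctrl. The groups overlapped at the top of KO and the bottom of Ctrl, and the log2 change was -0.17 (SE 0.12, edgeR adjusted p = 0.347).

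AJUBA, a LIM-domain protein that binds the LATS kinases, had 62.2, 64.7 and 64.7 CPM in RNA-seq KO libraries, against 85.7, 89.5 and 89.3 CPM in Ctrl. It was 1.38-fold lower in KO with no overlap (log2 -0.47, SE 0.05, edgeR adjusted p = 1.20e-05). With all 12 libraries in 1 fit this call was lost, and the adjusted p ran from 1.05e-12 to 0.0906 over the 15 alternatives. Its 4sU-seq values were far lower, 1.64, 2.80 and 1.46 CPM in KO and 3.34, 4.01 and 2.73 CPM in Ctrl. KO replicate 2 reached just above the lowest Ctrl library, and the log2 change of -0.77 (SE 0.29) was not called (edgeR adjusted p = 0.11). Without KO replicate 2 it was -1.18 and was called (adjusted p = 0.00202, with 0.00202 to 0.308 over the 15 alternatives). In Ctrl the 4sU-seq level over the RNA-seq level, in log2, was -4.52 for AJUBA, at percentile 0.366 of the ratios of all genes tested. How reads over the span it shares with RP11-298I3.5 were counted is not given, so which part of AJUBA this ratio rests on is unknown.

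Of the secreted and nuclear readouts of YAP1, CTGF and CYR61 fell at steady state and ANKRD1 was too low to test there. CTGF, a matricellular protein, had 1.31, 1.41 and 1.83 CPM in RNA-seq KO libraries and 4.95, 4.09 and 4.50 CPM in Ctrl, from 162 and 477 counts in all. Every KO library lay below every Ctrl library, at 0.333 of the Ctrl level (log2 -1.59, SE 0.15, edgeR adjusted p = 2.06e-06). In 4sU-seq it had 1.15, 1.53 and 1.14 CPM in KO and 2.54, 2.95 and 2.37 CPM in Ctrl, from 340 and 691 counts. It was 2.06-fold lower without overlap (log2 -1.04, SE 0.18, edgeR adjusted p = 0.0106). That call was lost under ERCC scaling and without KO replicate 1, Ctrl replicate 1 or Ctrl replicate 2, at 0.226, 0.0574, 0.0548 and 0.0551, with adjusted p from 1.55e-05 to 0.226 over the 15 alternatives. The antisense gene over the start of CTGF held 291 counts in KO and 208 in Ctrl in 4sU-seq.

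CYR61, a relative of CTGF in the same family, differed between the assays. In RNA-seq it had 15.4, 15.4 and 15.7 CPM in KO and 39.3, 34.4 and 36.0 CPM in Ctrl. The KO libraries lay within 1 CPM of each other and below all Ctrl libraries, 2.36-fold lower (log2 -1.24, SE 0.06, edgeR adjusted p = 6.36e-09). In 4sU-seq it had 23.7, 22.5 and 18.7 CPM in KO and 25.4, 27.9 and 22.4 CPM in Ctrl. These ranges overlapped, and the log2 change was -0.22 (SE 0.15, edgeR adjusted p = 0.339), or -0.32 without KO replicate 2, where it was not called either.

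ANKRD1, an ankyrin-repeat protein best known from heart muscle, was at the floor of detection in RNA-seq. It held 4, 3 and 5 counts in KO and 7, 5 and 2 counts in Ctrl, where 3 counts stand for 0.0739 to 0.0972 CPM depending on the library, and no fold is given. Newly made ANKRD1 RNA was measured, at 0.503, 0.287 and 0.545 CPM in KO and 0.785, 0.568 and 0.948 CPM in Ctrl. KO lay below Ctrl in all libraries by a narrow gap, and the log2 change of -0.78 (SE 0.30) was not called (edgeR adjusted p = 0.12).

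F3 and AXL encode cell-surface proteins: F3 is tissue factor, which starts blood coagulation, and AXL is a receptor tyrosine kinase that binds GAS6. F3 had the largest change of the 10 genes in both assays. Its RNA-seq values were 63.3, 62.2 and 59.8 CPM in KO and 204, 208 and 217 CPM in Ctrl. Its 4sU-seq values were 39.3, 42.8 and 41.0 CPM in KO and 143, 141 and 136 CPM in Ctrl. The gap between genotypes was many times the spread within them in both assays. F3 was 3.39-fold lower at steady state (log2 -1.76, SE 0.06, edgeR adjusted p = 7.06e-11) and 3.41-fold lower in newly made RNA (log2 -1.77, SE 0.10, edgeR adjusted p = 0.000309). Only ERCC scaling ended the second call, at -1.54 and adjusted p = 0.0672, the highest of the 15 alternatives (lowest 1.85e-54).

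AXL had 85.8, 88.3 and 82.1 CPM in RNA-seq KO libraries and 135, 132 and 131 CPM in Ctrl. It was 1.56-fold lower in KO without overlap (log2 -0.64, SE 0.05, edgeR adjusted p = 8.49e-07). In 4sU-seq it had 79.1, 101 and 73.8 CPM in KO and 125, 140 and 116 CPM in Ctrl. KO lay below Ctrl again, with replicate 2 nearest, and the log2 change of -0.58 (SE 0.15) was called (edgeR adjusted p = 0.0424). The call was lost without KO replicate 1 or 3, without each Ctrl library in turn, under library size alone and under ERCC scaling (adjusted p from 0.00115 to 0.628 over the 15 alternatives), and without KO replicate 2 the log2 change was -0.80 and was called.

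**Figure D2:**
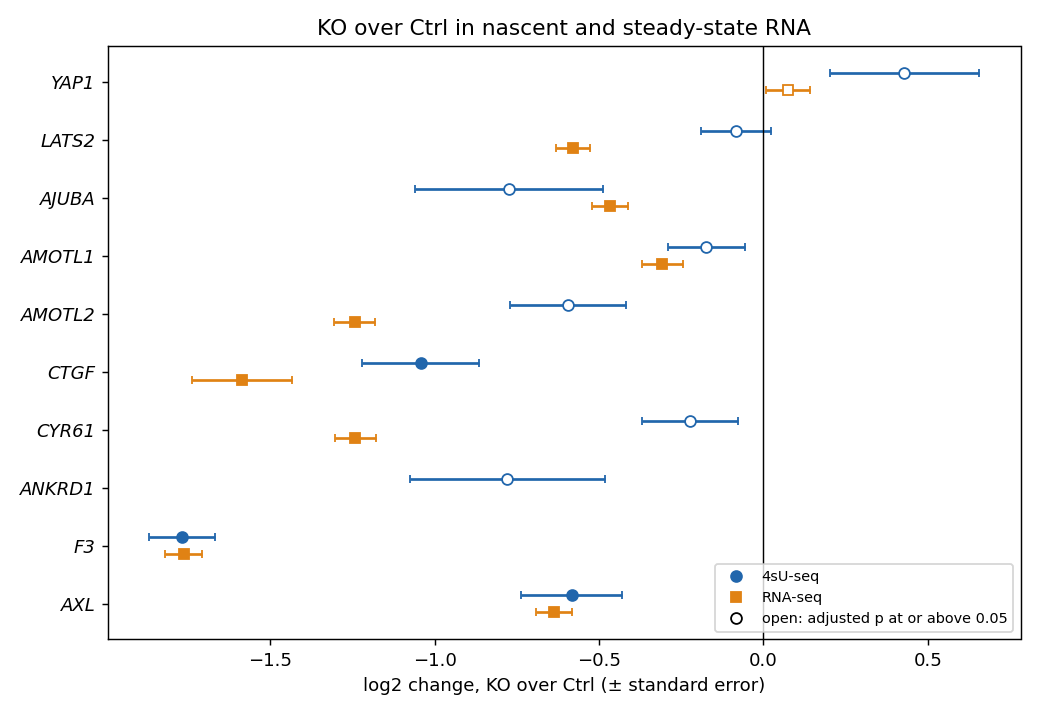
Log2 change of KO over Ctrl with its standard error for each of the 10 genes, as circles for 4sU-seq and squares for RNA-seq, open where the adjusted p is at or above 0.05. F3 lies at -1.77 and -1.76 in the assays, while CYR61 lies at -0.22 in 4sU-seq and -1.24 in RNA-seq.

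Whether a gene's KO change differed between newly made and steady-state RNA was tested as the interaction over all 12 libraries, over 15863 genes kept in both assays. The SE and adjusted p of this difference rest on a spread per gene pooled over both assays, although the assays differ in spread. Of the 9 genes tested, CYR61 was called and the other 8 were not, while 2.5% of all genes were called, 1.26% with the 4sU-seq change higher. The median difference of the 9 was 0.37 in log2, against 0.03 over all genes, and 7 of the 9 were positive. For CYR61 the difference was 1.02 (SE 0.16, edgeR adjusted p = 0.00976). Its 4sU-seq level over its RNA-seq level, in log2, was 0.47 in KO and -0.53 in Ctrl, where the medians over all genes were 0.23 and 0.19. The call was kept in every alternative but ERCC scaling (1.16, adjusted p = 0.857; 0.000974 to 0.857 over the 19 alternatives).

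AMOTL2 (0.64, SE 0.18, edgeR adjusted p = 0.0869), CTGF (0.53, SE 0.23, 0.263) and LATS2 (0.50, SE 0.13, 0.0718) had positive differences that were not called. Their log2 levels in 4sU-seq over RNA-seq were 0.95 in KO and 0.30 in Ctrl for AMOTL2, -0.19 and -0.69 for CTGF, and 2.07 and 1.58 for LATS2. YAP1 (0.37, SE 0.27) and AMOTL1 (0.14, SE 0.15) had smaller ones, and AJUBA had -0.32 (SE 0.27). F3 had a difference of -0.0036 (SE 0.10, edgeR adjusted p = 0.993), whose sign changed with the scaling, and AXL 0.05 (SE 0.15, 0.915). Without 4sU-seq KO replicate 2, YAP1 (0.60), LATS2 (0.60), AMOTL2 (0.49) and CYR61 (1.02) were called higher and AJUBA (-0.61) lower, among 4362 genes called in all against 397 with it. Without 4sU-seq KO replicate 3, AMOTL2 was called too (adjusted p = 0.0465, with 0.0122 to 1 over the 19 alternatives).

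**Figure D3:**
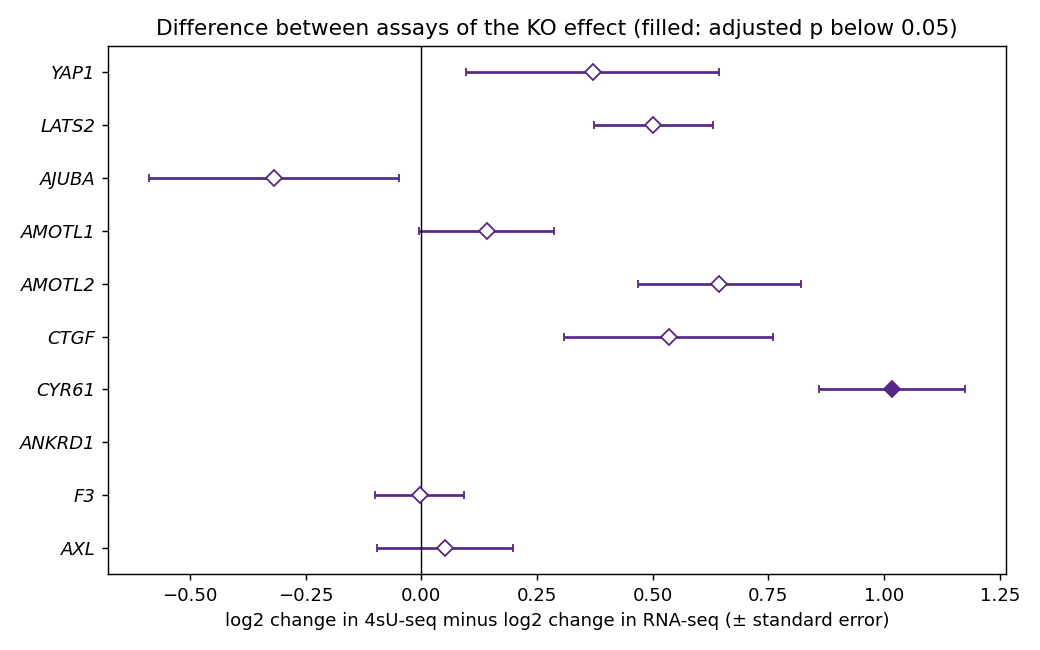
The log2 change in 4sU-seq minus that in RNA-seq, with its standard error, for 9 genes; the diamond is filled where the adjusted p is below 0.05, and ANKRD1 is blank because it was not tested in RNA-seq. CYR61 at 1.02 is the filled one, and F3 and AXL lie at 0 within their errors.

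Per kilobase of exon, the steady-state levels of the 10 genes spanned a wide range, with F3 at the top and ANKRD1 at the bottom in both genotypes. In KO, F3 averaged 21.5 CPM per kb (SD 0.612, n = 3), YAP1 19.8 (SD 1.13), AXL 16.6 (SD 0.613), AJUBA 10.7, AMOTL2 7.97, AMOTL1 6.91, CYR61 6.31, LATS2 4.34, CTGF 0.649 and ANKRD1 0.0575. In Ctrl, F3 averaged 72.9 (SD 2.31, n = 3), AXL 25.8, AMOTL2 18.9 (SD 1.19), YAP1 18.8 (SD 1.46), CYR61 14.9 (SD 1.03), AJUBA 14.8 (SD 0.360), AMOTL1 8.55, LATS2 6.49, CTGF 1.93 and ANKRD1 0.0651. F3 and YAP1 lay within their combined spread in KO, and so did AMOTL2 and YAP1, and CYR61 and AJUBA, in Ctrl. YAP1 stood directly below F3 in KO and below AMOTL2 in Ctrl, while its own level was not called as changed.

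The rest of the Hippo pathway and the other known YAP/TAZ targets were read from 2 lists. These lists, like the 10 genes, were chosen with earlier results of these data known, so their counts are no independent test. Of 28 other Hippo genes, 7 were called higher and 13 lower at steady state, and 8 were not called, with a median log2 change of -0.19. Of all genes tested in RNA-seq 21.5% were called higher and 26.8% lower, so the 7 higher lie near that background. Counted with members among the 10, 7 Hippo genes were higher, a count that became 2 with all 12 libraries in 1 fit and 11 under library size alone. WWC2, a scaffold that activates LATS kinases (-1.32, SE 0.06), fell most. SAV1, the adaptor of the STK3 and STK4 kinases (-0.74, SE 0.06), the DNA-binding partner TEAD4 (-0.74, SE 0.07), the YAP1 paralog WWTR1, also called TAZ (-0.65, SE 0.06), the tumour suppressor NF2 (-0.60, SE 0.06) and the kinase MAP4K4 (-0.59, SE 0.06) fell too, as did PTPN14, WWC1, LIMD1, WTIP, TAOK2, STK4 and TEAD1. FAT1, TAOK3, TEAD2, STK3, FAT4, FRMD6 and STRN rose, FAT4 from a low level, with 132 RNA-seq counts in KO and 76 in Ctrl. In 4sU-seq 2 of the 28 were called higher, FAT1 (0.71, SE 0.07) and FAT4 (1.96, SE 0.26), both large cadherins, and 5 were called lower, TEAD4 (-0.90, SE 0.12), LIMD1 (-0.65, SE 0.10), NF2 (-0.48, SE 0.10), WWC1 (-0.34, SE 0.08) and WTIP. The other 21 were not called and the median was 0.06, where 12.6% of all genes were called higher and 6.97% lower. In the difference between assays 0 of the 28 were called by edgeR. Among them 6 higher and 1 lower had an unadjusted p under 0.05, as did 2579 of all 15863 genes in either direction. Counted with their members among the 10, the Hippo genes called in 4sU-seq were 2 higher and 5 lower of 33, and 9 higher and 10 lower without KO replicate 2, where the difference called 15 higher and 3 lower. The 5 lower became 2 without any 1 of the other 5 4sU-seq libraries and under library size alone, and NF2 and WWC1 lost their calls in each of these settings.

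Of 15 other YAP/TAZ targets, 12 could be tested at steady state: 9 were called lower, 1 higher and 2 were not called, with a median log2 change of -0.59, where 26.8% of all genes were called lower and 21.5% higher. TGFB2, a transforming growth factor (-2.56, SE 0.20), DOCK5 (-1.07, SE 0.06), the ectonucleotidase NT5E (-1.06, SE 0.05), the membrane-repair protein MYOF (-0.99, SE 0.05), FJX1 (-0.74, SE 0.06) and CRIM1 (-0.64, SE 0.06) fell, as did PTPN14, GADD45A and ARHGEF17, and CCDC80 rose. Levels were low for TGFB2, with 57 RNA-seq counts in KO and 330 in Ctrl, and for CCDC80, with 118 and 62. In 4sU-seq 4 of 14 tested were called lower, DOCK5 (-1.01, SE 0.13), TGFB2 (-1.06, SE 0.23), NT5E (-0.58, SE 0.11) and MYOF (-0.49, SE 0.07), and 2 higher, CCDC80 (0.95, SE 0.20) and GADD45A (0.44, SE 0.11), with 8 not called and a median of -0.27. Of all genes 6.97% were called lower there and 12.6% higher, and the 2 higher lie near that share. GADD45A, a stress-response gene, stood at 30.7 CPM in KO and 22.7 in Ctrl in 4sU-seq and 25.8 and 32.3 in RNA-seq. Its 4sU-seq call (edgeR adjusted p = 0.0356) was lost without KO replicate 1 or 3 or any 1 Ctrl library (0.0634 to 0.188), with DESeq2 size factors (0.0571), no filter (0.124), the gene span trend removed (0.0572) and ERCC scaling (0.408), in 9 of the 15 alternatives, over which it ran from 0.00261 to 0.408. GADD45A (0.76, SE 0.11, edgeR adjusted p = 0.00659) and MYOF (0.50, SE 0.08, 0.015) were called in the difference between assays with the 4sU-seq change higher, like CYR61, and the other 10 tested were not. The GADD45A call was lost under ERCC scaling, and the MYOF call also under library size alone, with no filter and without RNA-seq KO replicate 1 or 2 (adjusted p = 0.0502 and 0.0587 without these, and 0.00118 to 1 over the 19 alternatives). Counted with members among the 10, the targets called in 4sU-seq were 2 higher and 7 lower of 22, and 4 higher and 10 lower without KO replicate 2, where the difference called 10 higher. The 7 lower became 3 without KO replicate 1, Ctrl replicate 1 or Ctrl replicate 2 and 4 without Ctrl replicate 3, and the 2 higher became 0 without KO replicate 1 or 3 or Ctrl replicate 1 or 2 and 1 without Ctrl replicate 3. Under ERCC scaling none of the other Hippo genes and targets given with a 4sU-seq value was called, leaving out the 10, with adjusted p between 0.0566 for FAT4 and 0.942 for WWC1, and over the 15 alternatives the adjusted p ran down to 2.6e-10 for FAT4 and 0.00176 for WWC1.

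**Figure D4:**
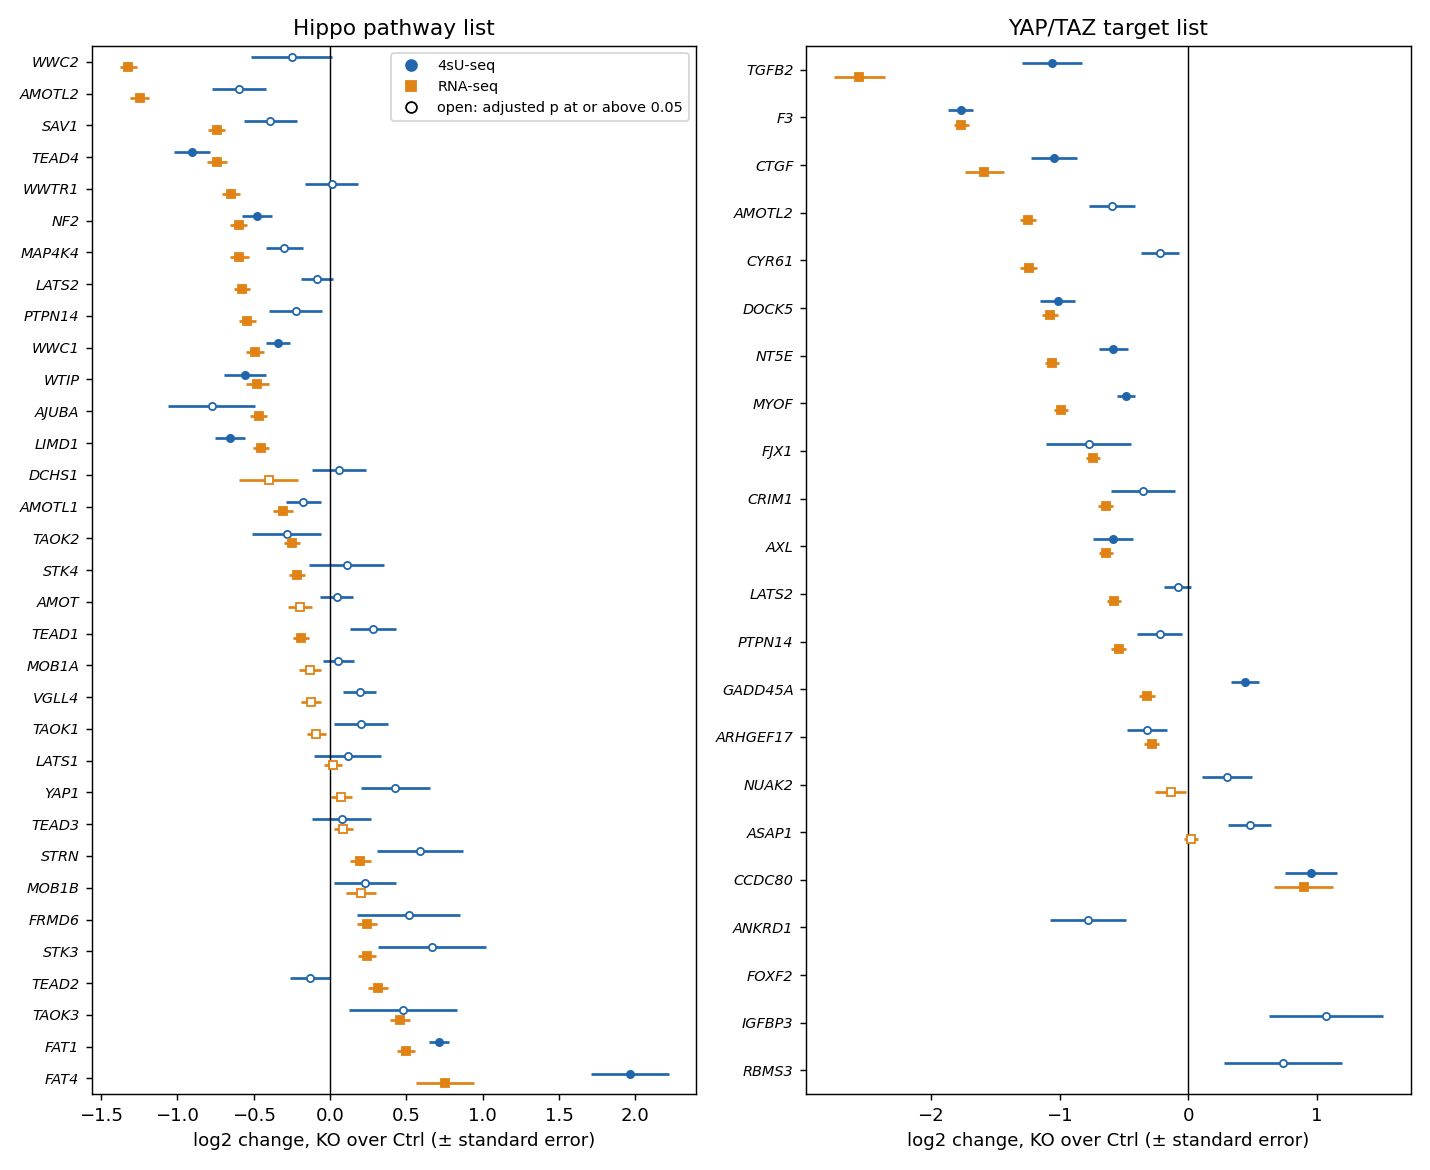
Log2 change of KO over Ctrl with its standard error for the Hippo pathway list (left) and the YAP/TAZ target list (right), including members among the 10, circles for 4sU-seq, squares for RNA-seq, open where not called. Most RNA-seq squares lie left of 0, and TGFB2 lies furthest left at -2.56, while FAT4 and CCDC80 lie to the right.

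Across the 12 libraries, with log2 CPM centred within each assay, AMOTL2 and CTGF varied most alike among the 10 (Pearson r = 0.98), and CTGF and F3 had r = 0.95. YAP1 had a negative r with 7 of the other 9, down to -0.85 with AJUBA. The libraries share genotype and depth, so these values describe the likeness and nothing more. Among 7633 well-expressed protein-coding genes, SEC14L1 (r = 0.993), PTPN9 (0.993) and ARID1A (0.991) were most like CTGF. Among 7632, UTP6 (r = 0.997), SFXN1 (0.996) and ERLIN1 (0.996) were most like F3. Their changes were smaller than those of CTGF and F3, with steady-state log2 changes of -0.96, -0.81 and -0.52 for the genes like CTGF and -0.66, -0.66 and -0.73 for those like F3.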

How the data were processed

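Per the labels, 4sU-labelled RNA (10 min, 500 µM 4sU, 300 µg of RNA biotinylated) and total RNA were sequenced. The authors deposited 2 tables of raw gene counts, 1 per assay, with 92 ERCC species. The submitters' processing notes name hg38, HISAT2 2.1.0, featureCounts, SAMtools 1.3 and FastQC 0.11.2; how strands and overlapping genes were counted, and on which annotation, is not given there. ERCC rows were left out of library sizes. Each assay was fitted alone with edgeR 4.0.16 (R 4.3.3): filterByExpr (minimum count 10), TMM, and the quasi-likelihood F test, two-sided, with Benjamini-Hochberg adjustment over all genes tested and a threshold of 0.05. The difference between assays was the interaction over 12 libraries and the genes that passed in both assays, normalised by TMM assay by assay. SE is the log2 change over the root of F. Ratios between assays used CPM plus 0.5. The fits were tested on simulated counts with known folds, drawn independently for each gene and library. No simulated library was made to stand apart as 4sU-seq KO replicate 2 did, so the simulation does not cover that feature. The members and lists were chosen with earlier results of these data known. Named genes are PPM1G, the 10 members, every called list gene (values for at most 6 per list and comparison; 1 gene of the Hippo list is not reported here and was left out of its counts), and the 3 genes most like CTGF and F3 above a mean log2 CPM of 4 in both assays. GENCODE 29 gave coordinates for 94.3% of gene IDs. Alternatives were DESeq2 1.42.0 (size factors, Wald test), ERCC scaling, library size alone, TMM over 12 libraries, a replicate block, no filter or a filter at a mean of 50 counts, 1 fit of 12 libraries, removal of the gene span trend, adding RNA-seq KO replicates 1 and 2, and leaving out each library. With 3 libraries a group and 3 counts as the floor, CPM below 0.0302 to 0.0365 in 4sU-seq was not resolved.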

Additional observations from a re-analysis of the deposited data

Results flagged for a closer look

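CYR61 was singled out because its KO change differed between the assays by the interaction test: the log2 change in 4sU-seq minus that in RNA-seq was 1.02 (SE 0.16, edgeR quasi-likelihood test, adjusted p = 0.00976 over 15863 genes). All 3 KO libraries lay below Ctrl in RNA-seq, and the groups overlapped in 4sU-seq. The call was lost under ERCC scaling (edgeR adjusted p = 0.857). Whether both assays were counted over the same parts of a gene is not given.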

How the results depend on the processing

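Genes called in 4sU-seq numbered 4165 as reported, 705 under ERCC scaling, 6608 with all 12 libraries in 1 fit, and 1323 (Ctrl replicate 1) to 11671 (KO replicate 2) when 1 library was left out. The 3 members called lower there became 0 under ERCC scaling, 5 with the DESeq2 Wald test (AJUBA and AMOTL2 added), 6 with all 12 libraries in 1 fit (ANKRD1 too), 6 with the gene span trend removed (AMOTL1 in place of ANKRD1), and 1 (KO 1, Ctrl 1 or Ctrl 2) to 5 (KO 2) when 1 library was left out, where 0 to 1 were called higher. ERCC scaling turned the direction of LATS2 (0.17) and AMOTL1 (0.091) in 4sU-seq, and library size alone that of LATS2 (0.0046). ERCC scaling moved the median of all genes in 4sU-seq to 0.27. In RNA-seq 9866 genes were called, and 4788 with all 12 libraries in 1 fit; 1 member, YAP1, was called higher under library size alone and 1, again YAP1, with a mean of at least 50 counts. In the difference between assays 397 genes were called, 7 under ERCC scaling, 190 with no filter and 86 (RNA-seq KO replicate 2) to 4362 (4sU-seq KO replicate 2) when 1 library was left out. Members called higher there were 0 under ERCC scaling and 1 to 4, and members called lower 0 to 1, when 1 library was left out. The difference of F3 turned positive under ERCC scaling (0.14), TMM over all 12 libraries (0.014) and some left-out libraries (-0.048 to 0.059), and that of AXL turned negative under library size alone (-0.040), no filter (-0.013) and some left-out libraries (-0.058 to 0.14). The cause of these shifts was not tested.

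Each group's mean log2 CPM was subtracted, and the remaining deviations of KO and Ctrl libraries were correlated. Deviations of same-numbered libraries correlated at -0.16, 0.88 and 0.85 in 4sU-seq and -0.06, 0.21 and 0.31 in RNA-seq. In 4sU-seq KO replicate 1 went with Ctrl replicate 3 at 0.76, and the other unlike-numbered pairs ran from -0.86 to 0.21. Within each group the deviations cancel out, so these correlations are not independent of each other. They do not settle whether libraries with the same number were paired. With the replicate block 6907 genes were called in 4sU-seq, with 6 members lower, and 656 in the difference, with 2 members higher. Depth limits ANKRD1 in RNA-seq and CTGF in both assays. ERCC shares in 4sU-seq ran from 0.0230 to 0.0560% of gene counts in KO and 0.0308 to 0.0457% in Ctrl.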
